A study of Danio rerio with 30 samples.

Results

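The genes described here encode the proteins of the cytosolic ribosome. They were chosen by symbol: a name of the form *rpl* or *rps* followed by a number, with at most 1 letter or a point and 1 digit after it, or *rplp0*, *rplp1*, *rplp2*, *rplp2l* or *rpsa*. The rule found 79 of the 14648 genes listed for the triplicate experiment and for the preliminary one at 21 hpf (hours post fertilization), of which 45 encode large subunit and 34 small subunit proteins. In the preliminary experiment at 18 hpf, listed with other gene models and 31874 genes, it found 61, 33 of the large and 28 of the small subunit. The members were set by name alone, but the family was singled out with earlier results of these data in view, so the differences between groups given below are a description and carry no test.

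RNA was measured by sequencing of oligo dT cDNA in zebrafish embryos of the *AB strain, collected at 18 and 21 hpf. In the triplicate experiment, wildtype embryos were set beside embryos deficient in Tbx5a, in Tbx5b or in both (double-deficient), which had received a morpholino against *tbx5a*, against *tbx5b* or against both at the single cell stage, and the eyes had been removed. Each of its 8 groups had 3 libraries. The preliminary experiment had 6 libraries from complete embryos, 1 per stage for wildtype embryos and for embryos deficient in either single paralogue. Every library came from 10 pooled embryos. A morpholino is an antisense oligonucleotide that blocks a chosen transcript, and no control injection of the wildtype embryos was named in the labels or the methods.

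Where several values of a stage follow each other below, they stand in the order wildtype, Tbx5a-, Tbx5b- and double-deficient, without the last for the preliminary libraries.

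The deposited levels are FPKM, fragment counts divided by transcript length and library size, so levels of different genes can be set side by side. The libraries of a triplicate group had been combined into a single value with a lower and an upper bound, whose confidence level is not stated. Each group therefore had 1 value per gene, and no standard deviation or p-value could be computed. A gene was kept in a comparison when its FPKM was at least 1 in either group and both values were marked as usable. It was counted as called when the log2 ratio, with 1 FPKM added to each value, was at least 1 in either direction and the bounds did not overlap.

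Ribosomes translate every messenger RNA of the cell. The large subunit, with the *rpl* proteins, forms the peptide bond, and the small subunit, with the *rps* proteins, reads the codons. In vertebrates most of these proteins are each needed in 1 copy per ribosome, and their messenger RNAs begin with a tract of pyrimidines through which their translation is regulated together. Loss of certain ribosomal proteins in zebrafish and in humans disturbs blood formation, and in mammals free RPL5 and RPL11 stabilise p53.

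The libraries were checked before the levels were compared. The eye field gene *rx1* was at 1.28 to 4.29 FPKM in the 8 triplicate groups, and at 8.12 to 22.9 FPKM in the 6 preliminary libraries. Of 10 markers of muscle, nerve, notochord, skin and blood with a value above 0 in every triplicate group, 4 were lower and 6 higher in Tbx5a-deficient than in wildtype embryos of the triplicate experiment at 21 hpf. A further skin marker, *krt4*, is listed at 0. The muscle regulator *myod1* was at 26.0 to 63.5 FPKM in all groups, while the skin keratin gene *krt5*, chosen after its values were seen, had 3301, 1940, 2762 and 2149 FPKM in the triplicate groups at 21 hpf. The latter was thus lowest in the Tbx5a-deficient group, as the ribosomal protein genes were, and its part in their values was not tested. In the preliminary experiment the wildtype library at 18 hpf and the Tbx5b-deficient library at 21 hpf stood apart from the other libraries of their stages. Across 7988 genes outside the family, the log2 ratio of Tbx5b-deficient to wildtype embryos at 18 hpf and the same ratio at 21 hpf, which share no library, had a Pearson's r of −0.65.

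Ribosomal protein genes were among the most abundant transcripts of these embryos. Over the 8 triplicate groups, 77 of the 79 had a median of at least 1000 FPKM, a level reached by 74 genes outside the family. Of the 60 genes of highest median level, 53 were members. In wildtype embryos the members made up 44.7% of the summed FPKM of all genes at 18 hpf and 46.2% at 21 hpf. In the deficient groups the share was 44.0%, 40.0% and 46.2% at 18 hpf and 39.5%, 41.5% and 40.9% at 21 hpf. The lowest shares were those of the Tbx5a-deficient group at 21 hpf and the Tbx5b-deficient group at 18 hpf. These shares leave out 4 genes that Cuffdiff marked as having too many fragments for an estimate, among them *eef1a1l1* and *krt4*, which are listed at 0. No ribosomal protein gene carried that mark.

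**Figure D1:**
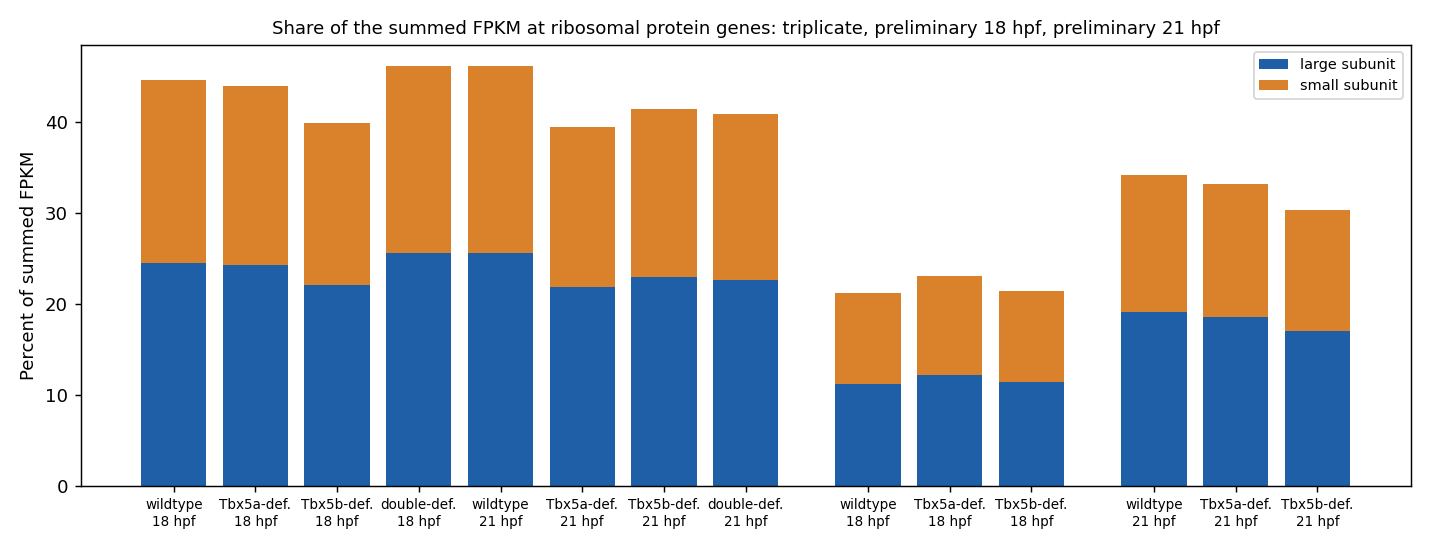
Share of the summed FPKM, in percent, taken by ribosomal protein genes in each group, with the large subunit below and the small subunit stacked on it; 1 bar is 1 pooled triplicate group or 1 preliminary library. The triplicate bars lie between 39.5% and 46.2%, and the preliminary bars at 18 hpf, which count 61 members against 79, lie lowest.

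The preliminary libraries had lower shares. The 79 members made up 34.2%, 33.2% and 30.3% of the summed FPKM at 21 hpf. At 18 hpf the 61 members made up 21.2%, 23.0% and 21.5%. Tissue markers differed as well. In wildtype embryos at 21 hpf, 6 of the 10 markers were higher in the preliminary than in the triplicate experiment, 4 of them at least 2-fold, and 4 were lower. The summed level of the 3 muscle markers was 4378 to 5265 FPKM in the preliminary libraries at 21 hpf and 1872 to 3258 FPKM in the triplicate groups, and that of the 3 neural markers 299.7 to 444.5 against 176 to 205 FPKM. The marker *actc1b* gave 4119 of the 4496 FPKM of the muscle sum in preliminary wildtype embryos at 21 hpf. In wildtype embryos at 21 hpf the fast muscle troponin gene *tnnt3b* had 341.5 against 8.10 FPKM, the neuronal gene *elavl3* 132 against 14.1 FPKM and *krt5* 1259 against 3301 FPKM. These genes were chosen after their values were seen. The muscle marker *myod1*, at 35.7 against 41.2 FPKM, and the blood marker *hbae3*, at 1405 against 1472 FPKM, differed little. The 2 experiments thus differ in some of the tissue markers, in eyes, in libraries and, at 18 hpf, in gene models, and these cannot be told apart.

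Within the family the levels covered a narrow range apart from a pair of genes. The highest member was *rps29*, of the small subunit, at 14244, 13765, 10065 and 15459.6 FPKM at 18 hpf and at 18744, 10029, 11500.4 and 11862 FPKM at 21 hpf. It was followed by the stalk protein gene *rplp1*, with a median of 11248 FPKM over the 8 groups, and by *rps20*, *rpl35a*, *rps12* and *rpl39*, with medians of 10645, 9999, 9405 and 8275 FPKM. At the low end were *rpl5a*, which encodes a protein that carries 5S rRNA into the large subunit, at 2598 FPKM, *rplp2* at 2084 FPKM, *rpl36a* at 2008 FPKM and *rpl31* at 1616 FPKM. A locus listed as *RPL31*, also on chromosome 9, had 5788 FPKM in preliminary wildtype embryos at 18 hpf, where the gene models differ. Whether the low rank of *rpl31* rests on its gene model was not tested. The levels of the 77 abundant members in wildtype embryos at 18 hpf spanned 7.67-fold.

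*rpl37* and *rps8b* stood far below the rest. *rpl37* had 17.9 to 27.5 FPKM in the triplicate groups. *rps8b* had 0.309 to 1.11 FPKM, with a lower bound of 0 in 7 of the 8 groups, while its paralogue *rps8a* had 5019.9 to 9271 FPKM. *rps8b* was the only member below the minimum of 1 FPKM in a triplicate comparison, and it was kept only in those that involved Tbx5a-deficient embryos at 21 hpf. The order of the 77 abundant members was nearly the same in every group: Spearman's rho of their levels was 0.92 to 0.99 over the 28 pairs of triplicate groups. Between wildtype embryos of the triplicate and the preliminary experiment it was 0.92 at 21 hpf over 79 members and 0.62 at 18 hpf over 61, where the gene models differ.

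The members lie on all 25 chromosomes, with at most 7 on 1 chromosome. Only 2 pairs lie within 25 kb of each other. *rpl3* (chromosome 3, 29736383 to 29740506) and *rpl27* (29763124 to 29768384) are 22617 bp apart, and *rplp2* (chromosome 6, 49510150 to 49512923) and *rps26l* (49522052 to 49525231) are 9128 bp apart. The methods name the Zv9 build and the submitters' notes danRer10, so the build of these positions is not settled. The loci of *rplp0*, *rplp1* and *rps12* overlap other listed genes. That of *rplp0* is listed as 920323 bp long and that of *rplp1* as 585381 bp, against a median of 5200.0 bp, and their values are uncertain for that reason.

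**Figure D2:**
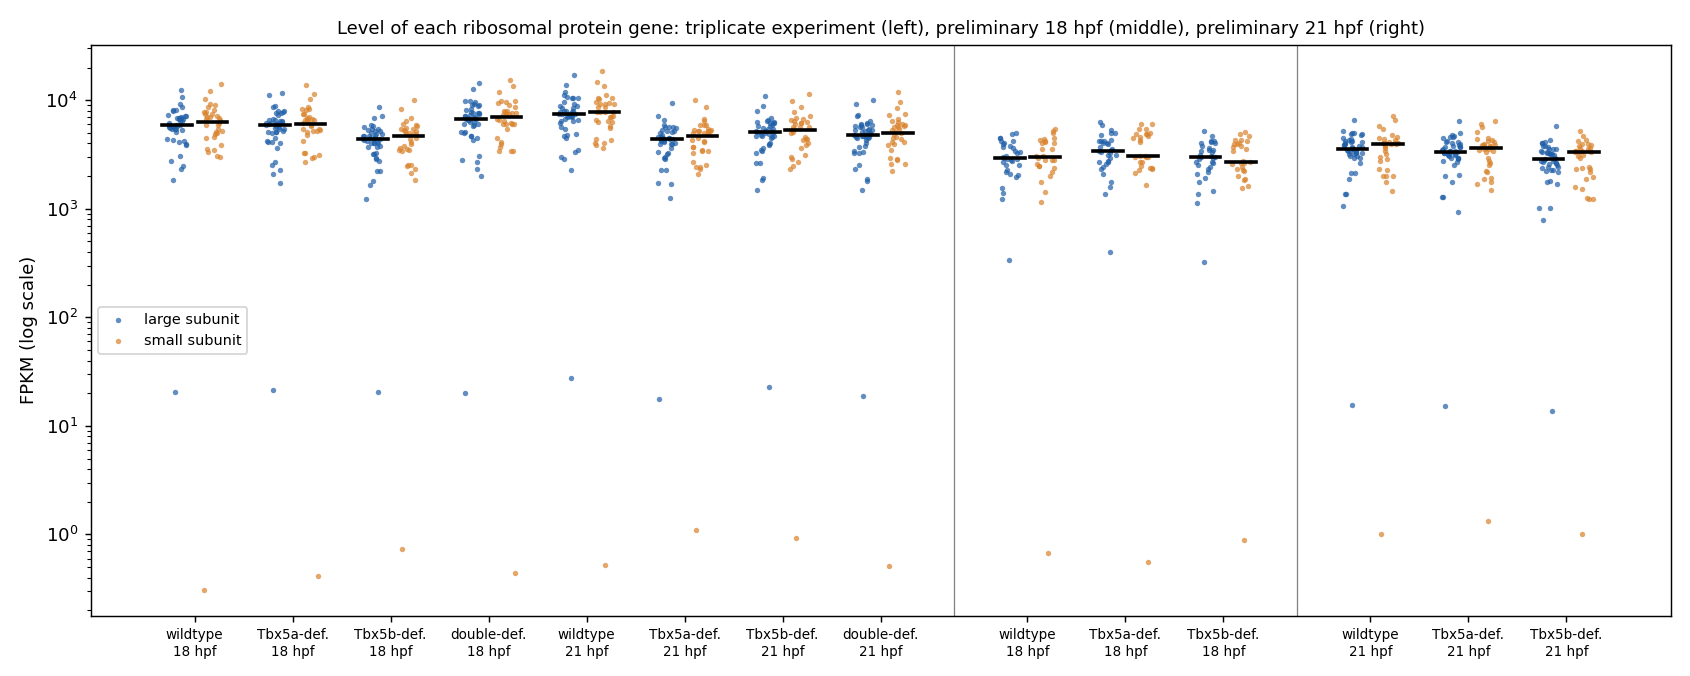
FPKM of each ribosomal protein gene on a log scale, 1 point per gene, in the 8 triplicate groups, the preliminary libraries at 18 hpf and those at 21 hpf, with a black bar at the median of each subunit. The isolated low points are *rpl37* and, below it, *rps8b*, and those at 325 to 397 FPKM in the preliminary libraries at 18 hpf are *rplp2*.

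Large and small subunit genes had similar levels. In wildtype embryos at 18 hpf the median stood at 5891 FPKM for 45 large subunit genes and 6359 FPKM for 34 small subunit genes, and at 21 hpf it was 7396 and 7778 FPKM. The difference in median log2 level, large minus small, was −0.11 and −0.07 in these groups and −0.11 to −0.05 over the 8 triplicate groups. With the mean over members in place of the median it was above 0 in all 8 triplicate groups. That mean counts *rps8b*, of the small subunit, and *rpl37*, of the large, which weigh heavily on it. Relative to the family median, *rps8b* stood at −12.3 to −11.0 on the log2 scale and *rpl37* at −8.31 to −7.69. A mean without them was not computed. In the preliminary libraries the difference in median log2 level was −0.05, 0.14 and 0.14 at 18 hpf and −0.14, −0.13 and −0.20 at 21 hpf. The direction of this difference thus depended on the summary, the experiment and the members counted.

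The subunits also moved alike between groups. The median log2 ratio of the large subunit genes differed from that of the small subunit genes by less than 0.03 in each of the 10 triplicate comparisons. In Tbx5a-deficient embryos at 21 hpf, for example, it was −0.76 for the large and −0.78 for the small subunit. In the 4 preliminary comparisons the difference was between −0.02 and 0.05.

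At 18 hpf, the comparison of each deficient group with wildtype asked whether the members differed with the loss of a paralogue. The median FPKM of the 79 members was 5928, 5903, 4399 and 6753, lowest in the Tbx5b-deficient group. All 78 kept members were lower in Tbx5b-deficient embryos, where 52.4% of all kept genes were lower, with a median log2 ratio of −0.49 against −0.01 for all kept genes. In Tbx5a-deficient embryos the median was −0.08 and 55 of 78 were lower, against 57.8% of all kept genes. In double-deficient embryos it was 0.15 and 71 of 78 were higher, against 45.4% of all kept genes. The 3 comparisons share the wildtype value. In such bulk samples, fewer cells of a type and less RNA per cell cannot be told apart.

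No member was called at 18 hpf, where 0.255%, 0.254% and 0.237% of all kept genes were called in the 3 comparisons. The upper bounds lay a median of 58.5% to 73.4% above the members' values at this stage. Bounds this wide still overlap at a 2-fold difference, so the absence of calls does not show that the levels were equal. *rpl36* was among the lowest members in Tbx5b-deficient embryos, at a log2 ratio of −0.64. The stalk protein gene *rplp0* had the highest log2 ratio when Tbx5a or both paralogues were deficient, at 0.29 and 0.48, and *rpl3*, of the peptidyl transferase region, was next in Tbx5a-deficient embryos at 0.20. *rps18* was among the lowest members in both, at −0.27 and −0.10.

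At 21 hpf all 3 deficient groups were below wildtype. The median FPKM of the members was 7472, 4375, 5108 and 4839, lowest in the Tbx5a-deficient group. In Tbx5a-deficient embryos 78 of 79 kept members were lower, against 52.0% of all kept genes, with a median log2 ratio of −0.77, or 0.585 of the wildtype level. In Tbx5b-deficient embryos all 78 were lower, against 57.5% of all kept genes, with a median of −0.54. In double-deficient embryos all 78 were lower, against 54.4% of all kept genes, with a median of −0.60. The median over all kept genes was −0.02, −0.04 and −0.03. These comparisons, too, share 1 wildtype value, and for 74 of the 79 members it was the highest of the 8 triplicate groups.

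The bounds of that wildtype value were wide. The upper bound lay a median of 81.1% above the value in wildtype embryos at 21 hpf, against 56.2% to 73.4% in the other triplicate groups, and 10 members had a lower bound of 0 there. No member was called at 21 hpf, where 0.298%, 0.224% and 0.277% of all kept genes were called in the order above. Without the bounds, 6 members were at least 2-fold lower in Tbx5a-deficient embryos: *rplp0* (log2 ratio −1.21), *rps13* (−1.17), *rpl27a* (−1.10), *rps10* (−1.03), *rps12* (−1.03) and *rps2* (−1.01). By the same rule 1.27% of all kept genes were lower. *rps13*, of the small subunit, had 9217 FPKM (bounds 502 to 17933) in wildtype and 4101 FPKM (1932 to 6269) in Tbx5a-deficient embryos. It was also the lowest member in Tbx5b-deficient and double-deficient embryos, at −0.85 and −0.90, each followed by *rpl27a*, at −0.84 and −0.89. The smallest difference among the abundant members in Tbx5a-deficient embryos was that of *rpl4*, at −0.48.

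The members studied most in development and disease followed the family. *rps19*, whose loss causes Diamond-Blackfan anemia in humans, had 8727, 8305, 5838 and 9461 FPKM at 18 hpf and 10405, 5930.0, 6717 and 6644 FPKM at 21 hpf. *rpl11* had 6721, 6224, 4672 and 7562 FPKM at 18 hpf and 7963, 4467, 5257 and 5349 FPKM at 21 hpf. *rps6*, the small subunit protein phosphorylated by S6 kinase, had 5905, 6197, 4462 and 7338 FPKM at 18 hpf and 7772, 4483, 5325 and 4928 FPKM at 21 hpf. In all 3 genes the wildtype group was highest at 21 hpf and the double-deficient group at 18 hpf, and every pair of bounds overlapped within a stage. *rpsa*, whose protein is also known as the laminin receptor, and *rps27a*, which encodes ubiquitin fused to a small subunit protein, had log2 ratios of −0.89 and −0.64 in Tbx5a-deficient embryos at 21 hpf.

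**Figure D3:**
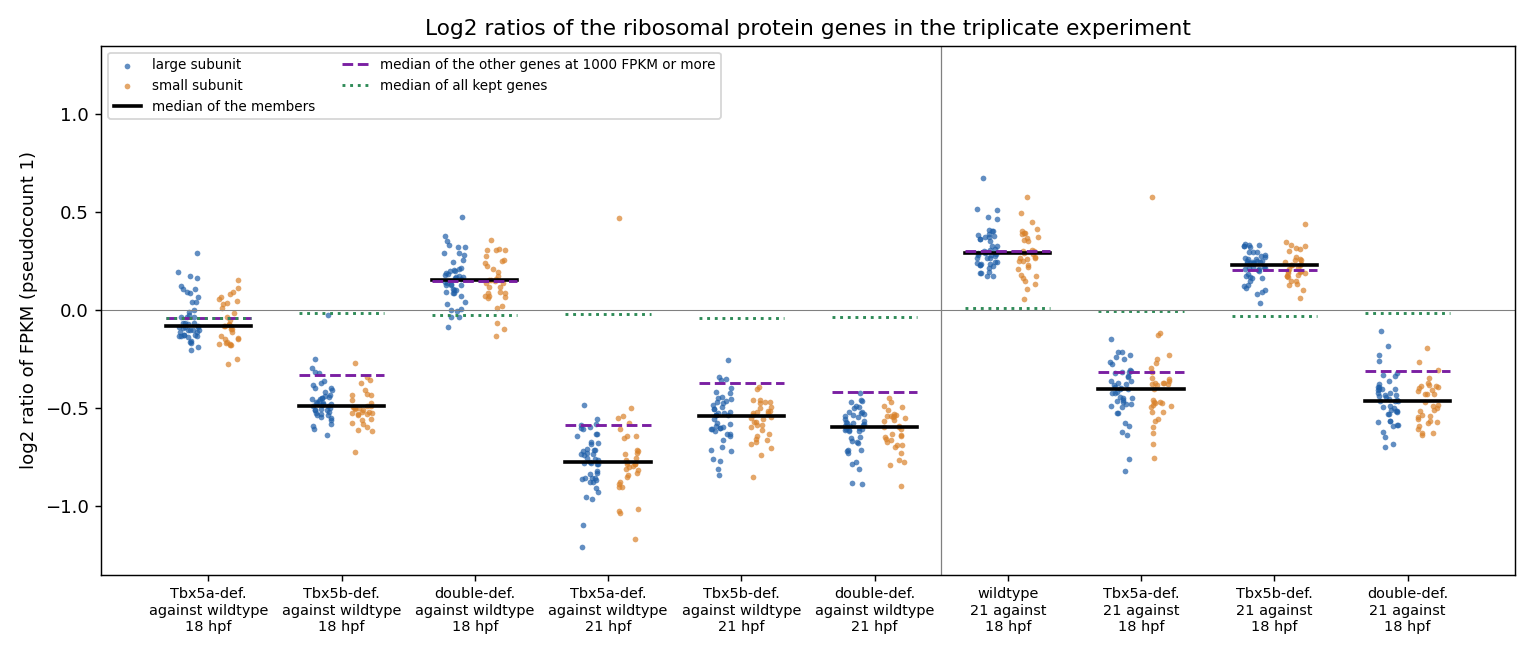
Log2 ratio of FPKM, with 1 FPKM added, of each kept ribosomal protein gene in the 10 triplicate comparisons, 1 point per gene, with the medians of the members (black), of 74 other genes of at least 1000 FPKM (dashed) and of all kept genes (dotted). The members' median is −0.77 in Tbx5a-deficient embryos at 21 hpf and 0.29 in wildtype embryos at 21 against 18 hpf, while the dotted lines stay near 0.

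Other abundant genes moved with the family. The 74 genes outside it with a median of at least 1000 FPKM had median log2 ratios of −0.04, −0.33 and 0.15 at 18 hpf and of −0.59, −0.37 and −0.42 at 21 hpf, in the 3 deficient groups. The signs matched those of the members in all 6 comparisons, and the sizes were smaller at 21 hpf. The summed FPKM of all other genes also differed, from 515737 in Tbx5b-deficient embryos at 18 hpf to 695307 in wildtype embryos at 21 hpf, so FPKM was not scaled to 1 total. Whether a difference in scaling or in the make-up of the libraries had a part in the family's values was not tested.

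The comparison of 21 with 18 hpf within a genotype gave opposite signs. All 78 kept members were higher at 21 hpf in wildtype embryos, against 51.6% of all kept genes, with a median log2 ratio of 0.29, and all 78 were higher in Tbx5b-deficient embryos, against 46.1%, with a median of 0.23. In Tbx5a-deficient embryos 78 of 79 were lower, against 50.8% of all kept genes, with a median of −0.40. In double-deficient embryos all 78 were lower, against 51.4%, with a median of −0.46. No member was called in any of them, where 0.578%, 0.773%, 1.06% and 1.37% of all kept genes were called in the same order. The wide bounds given above limit these calls as well. The abundant genes outside the family had medians of 0.30, 0.21, −0.32 and −0.31, so the signs were those of the members.

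Single members differed in how far they moved. Between the highest and the lowest of the 8 groups, the 77 abundant members differed by a median of 1.74-fold. *rpl4*, *rps18*, *rps7* and *rps24* differed least, by 1.40, 1.46, 1.46 and 1.49-fold, and *rplp0* and *rps13* most, by 2.31 and 2.25-fold. The group with the lowest level was the Tbx5b-deficient group at 18 hpf for 39 members and the Tbx5a-deficient group at 21 hpf for another 39. From 18 to 21 hpf, *rplp0* had the highest log2 ratio in wildtype embryos, at 0.68, and the lowest in Tbx5a-deficient embryos, at −0.82.

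Of 5 pairs of paralogous members, 4 had ratios that varied little across the triplicate groups. The exception was *rps8a* and *rps8b*, whose ratio ran from 4657.5 in Tbx5a-deficient embryos at 21 hpf to 22921 in wildtype embryos at 18 hpf, with *rps8b* near 0 throughout. *rpl5a* had 0.888 to 0.998 of the level of *rpl5b*. *rps27.1* had 0.923 to 1.12 of the level of *rps27.2*. *rps26l* was 1.42 to 1.73-fold above *rps26*, with overlapping bounds in all 8 groups. *rplp2l* was 3.13 to 3.46-fold above *rplp2*, with bounds apart only at 21 hpf, in the groups deficient in a single paralogue. With short single-end reads, fragments from near-identical copies can be assigned to either, so these proportions are uncertain. In the preliminary libraries *rplp2l* was 3.50 to 3.98-fold above *rplp2* at 21 hpf and by 10.5-fold or more at 18 hpf, where the gene models differ.

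**Figure D4:**
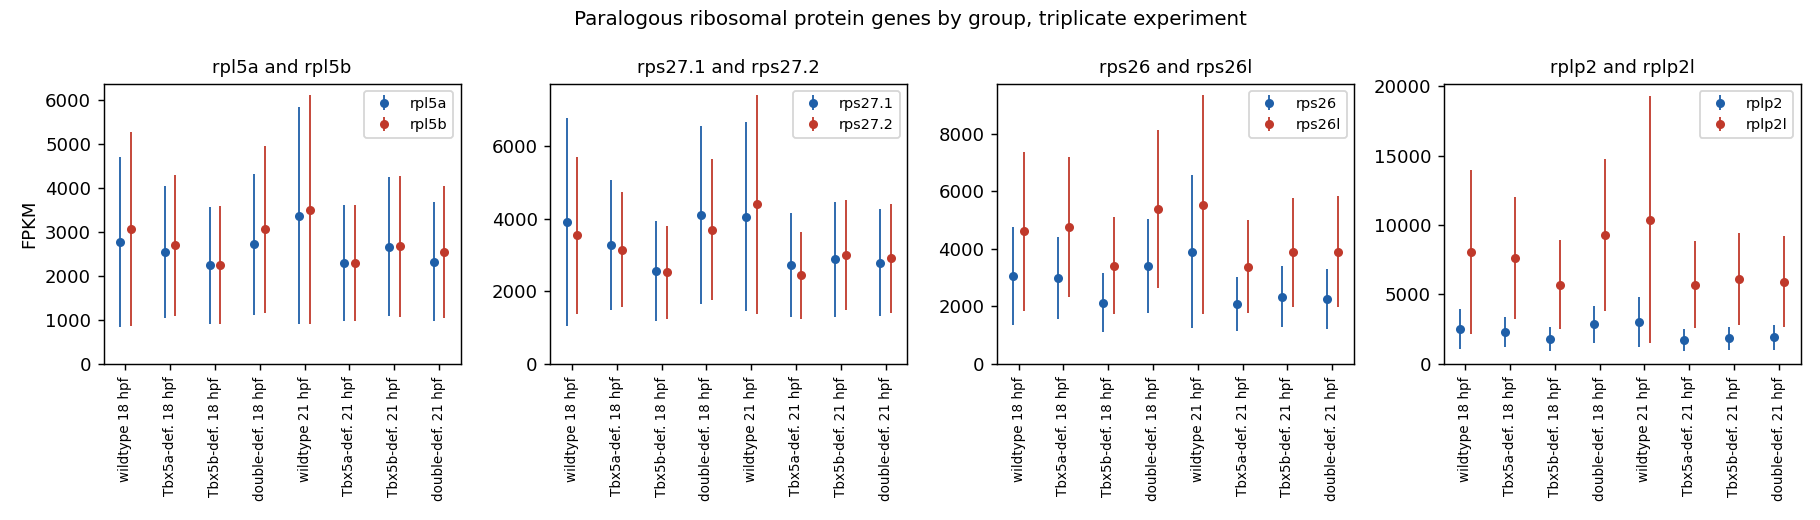
FPKM of 4 pairs of paralogous genes in the 8 triplicate groups, each point a pooled group value with the deposited lower and upper bounds as the bar. *rpl5a* and *rpl5b* and *rps27.1* and *rps27.2* overlap, *rps26l* lies above *rps26*, and *rplp2l* lies above *rplp2* in every group.

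In the preliminary experiment the medians of the members lay nearer to wildtype at 21 hpf than in the triplicate experiment. At 18 hpf 51 of 60 kept members were higher in Tbx5a-deficient embryos, against 46.1% of all kept genes, with a median log2 ratio of 0.18, and 49 of 60 were lower in Tbx5b-deficient embryos, against 52.8%, with a median of −0.08. At 21 hpf 75 of 79 were lower in Tbx5a-deficient embryos, against 52.0%, with a median of −0.08, and 78 of 79 were lower in Tbx5b-deficient embryos, against 50.0%, with a median of −0.29. The corresponding triplicate medians were −0.08, −0.49, −0.77 and −0.54, so the sign differed for Tbx5a-deficient embryos at 18 hpf. Without the wildtype library at 18 hpf, which stood apart, Tbx5a-deficient embryos were above Tbx5b-deficient embryos in 59 of 60 members, against 51.6% of all kept genes, with a median of 0.25. That sets 1 library against 1 library, and the bounds overlapped in every member.

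No member was called in the preliminary experiment either, where 1.57%, 1.58%, 0.0772% and 1.65% of all kept genes were called in the 4 comparisons. The bounds were narrower than in the triplicate experiment, with the upper bound a median of 26.8% to 28.1% above the value. Bounds were apart at a smaller difference in 2 of 60 kept members in Tbx5a-deficient embryos at 18 hpf, *rps9* among them, against 2.53% of all kept genes. They were also apart in 2 of 79 in Tbx5b-deficient embryos at 21 hpf, *rps9* and *rps27.1*, against 4.09% of all kept genes. In neither comparison does this count set the family apart from all kept genes.

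*rps9* and *rps27.1*, both of the small subunit, were low in the 2 libraries that stood apart. They were picked for their values in these same libraries, so their order describes them alone and not the family. *rps9* had 2837 (bounds 1993 to 3680.1), 5427 (3776 to 7078) and 4333 FPKM (3035 to 5632) at 18 hpf. At 21 hpf it had 3606 (2615 to 4597), 3402 (2472 to 4332) and 1890.5 FPKM (1383 to 2398). *rps27.1* had 1414, 2380.0 and 2015 FPKM at 18 hpf and 2269.9, 2186 and 1233 FPKM at 21 hpf. In both genes the wildtype library was the lowest at 18 hpf and the Tbx5b-deficient library the lowest at 21 hpf.

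*rps27.2*, the paralogue of *rps27.1*, did not have that order. It had 2167, 2121 and 1634 FPKM at 18 hpf and 1984, 1911 and 1979 FPKM at 21 hpf, so that *rps27.1* stood at 0.652, 1.12 and 1.23 of *rps27.2* at 18 hpf and at 1.14, 1.14 and 0.623 at 21 hpf. In the triplicate groups, in which *rps9* was at 3920.1 to 6579 FPKM, neither *rps9* nor *rps27.1* had bounds apart from wildtype. In the gene models of the preliminary experiment at 18 hpf, the locus of *rps27.2* overlaps *rab13*, so its values at 18 hpf are uncertain.

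Across the 60 members kept at both stages, the log2 ratio of Tbx5b-deficient to wildtype embryos at 18 hpf and the same ratio at 21 hpf had a Pearson's r of −0.88. The ratio of Tbx5a-deficient embryos at 18 hpf and that of Tbx5b-deficient embryos at 21 hpf had an r of −0.84 across the same members and of −0.68 across 7972 genes outside the family. The opposite movement was thus found both in the family and outside it. With the ratio of Tbx5a-deficient embryos at 21 hpf, the r was −0.20 and −0.01. These are correlations across genes of 6 libraries, and genes are not independent replicates.

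**Figure D5:**
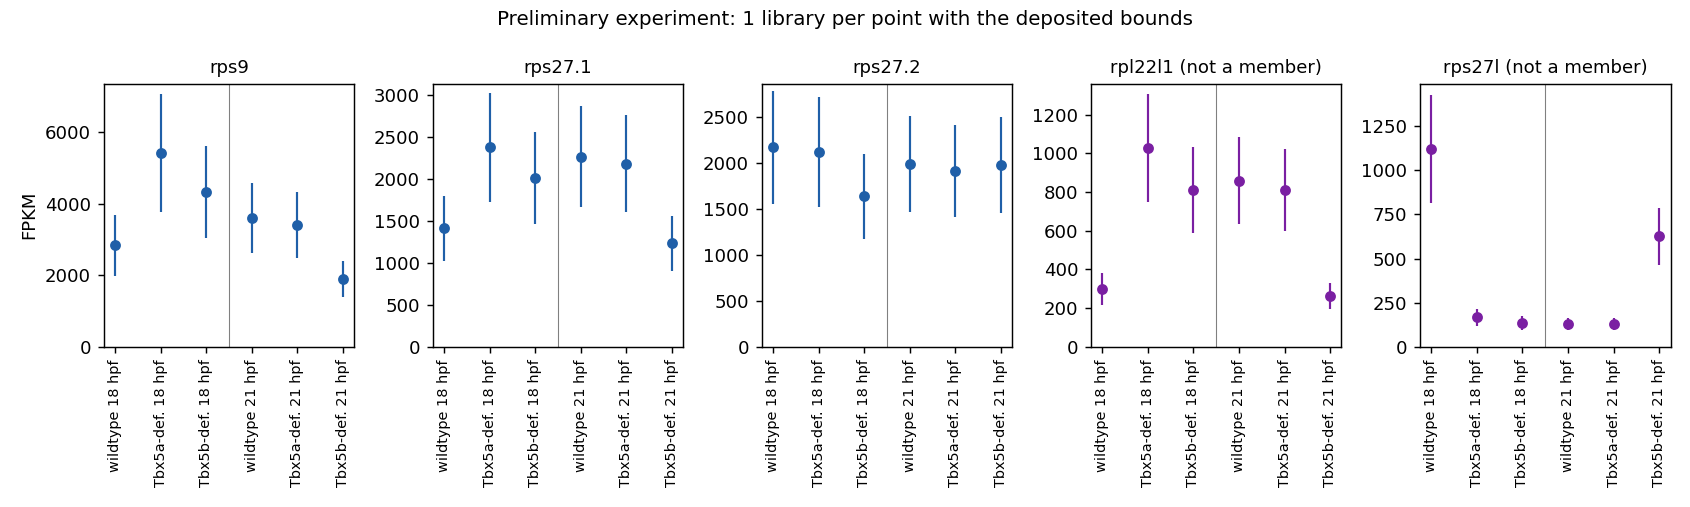
FPKM of *rps9*, *rps27.1*, *rps27.2* and 2 related genes outside the rule in the 6 preliminary libraries, 1 library per point, with the deposited bounds as bars and a line between 18 and 21 hpf. *rps9*, *rps27.1* and *rpl22l1* are lowest in wildtype at 18 hpf and in Tbx5b-deficient embryos at 21 hpf, and *rps27l* is highest in those libraries.

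*rpl22l1* and *rps27l*, relatives that the naming rule leaves out, were called in the preliminary libraries. *rpl7l1*, *rpl29* and *rack1*, also outside the rule, had no bounds apart from wildtype there, with log2 ratios between −0.41 and 0.49. *rpl22l1*, the paralogue of *rpl22*, had 298, 1025 and 810 FPKM at 18 hpf and 859, 810 and 261 FPKM at 21 hpf. It was called higher in both deficient groups at 18 hpf, with log2 ratios of 1.78 and 1.44, and lower in Tbx5b-deficient embryos at 21 hpf, with −1.72. *rps27l*, whose human counterpart is a target of p53, had the reverse order. It had 1120 FPKM (bounds 815 to 1424), 166 (117 to 216) and 133 FPKM (92.9 to 173) at 18 hpf, and 127, 129 and 626 FPKM (464 to 788) at 21 hpf. Its log2 ratios were −2.74 and −3.07 at 18 hpf and 2.29 in Tbx5b-deficient embryos at 21 hpf.

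In the triplicate groups neither gene was called. *rps27l* had 599, 599, 576 and 654 FPKM at 18 hpf and 915, 357, 671 and 525 FPKM at 21 hpf, and its log2 ratio of −1.36 in Tbx5a-deficient embryos at 21 hpf had overlapping bounds (431 to 1399 against 152 to 561). *rpl22l1* had 1016, 832, 819 and 829 FPKM at 18 hpf and 698, 908, 579 and 789 FPKM at 21 hpf. *rps27l* is listed as *RPS27L* or *zgc:136826*, a synonym in the RefSeq annotation.

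Other parts of the translation machinery were compared by lists. Of 12 translation factor genes whose messenger RNAs carry a pyrimidine tract in mammals, 11 were kept. Their medians were −0.02, −0.27 and 0.15 at 18 hpf and −0.56, −0.36 and −0.47 at 21 hpf, with the signs of the ribosomal protein genes. In size they lay nearer to those of the 74 other abundant genes, at −0.59, −0.37 and −0.42 at 21 hpf, than to those of the family. All 11 were lower in each deficient group at 21 hpf and none was called. *tpt1*, which encodes the translationally controlled tumour protein, had 8069, 5303, 6098 and 5817 FPKM at 21 hpf. *eef2b*, an elongation factor gene, had 2174, 3477, 1862 and 3275 FPKM at 18 hpf and 3101, 1681, 2409 and 2159 FPKM at 21 hpf.

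The 68 mitochondrial ribosomal protein genes had medians of −0.14, −0.35 and −0.02 at 18 hpf, and of −0.42, −0.31 and −0.37 at 21 hpf, where all 68 were lower in each deficient group. Their levels were low beside the cytosolic family, with a median of 53.3 to 83.4 FPKM over the 8 groups. The 35 ribosome assembly genes, which include factors that transcribe or process ribosomal RNA, had medians of −0.18, 0.00 and −0.20 at 18 hpf and of −0.16, −0.12 and −0.28 at 21 hpf. In the nucleolar methyltransferase gene *fbl*, chosen after its values were seen, the levels were 460, 401, 346 and 416 FPKM at 18 hpf. At 21 hpf they were 419, 327, 361 and 315 FPKM. *fbl* does not stand for its list in Tbx5b-deficient embryos at 18 hpf. There 18 of the 35 assembly genes were higher than in wildtype and 17, *fbl* among them, were lower, against 52.4% of all kept genes lower. None of these genes was called in a triplicate comparison. In preliminary Tbx5b-deficient embryos at 21 hpf, where 78 of 79 ribosomal protein genes and 50.0% of all kept genes were lower, 34 of 35 assembly genes were higher. Their median was 0.38 and none was called. That is 1 library, which stood apart from the others of its stage. Against the wildtype library that stood apart at 18 hpf, 32 assembly genes were lower and 3 higher in Tbx5b-deficient embryos, with a median of −0.22. There 52.8% of all kept genes were lower.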

How the data were processed

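RNA of 30 libraries was sequenced, 24 in the triplicate and 6 in the preliminary experiment. The authors aligned single-end reads with TopHat 2.1.0 and Bowtie2 2.2.5.0, per the labels, and used Cufflinks and Cuffdiff to obtain gene values. The deposited values are FPKM with lower and upper bounds, pooled over the 3 libraries of a triplicate group. Read numbers of single libraries are not in these values, so precision was read from the bounds, and p-values could not be computed; the planned tests for single libraries were not run. Values were compared as log2 ratios with a pseudocount of 1 FPKM (Python 3.11.15, pandas 2.3.3), after a minimum of 1 FPKM in 1 of the 2 groups. Gene types and synonyms came from the RefSeq annotation of GRCz12tu, to which all 79 members matched by name. Coordinates are as listed, counted from 1. The code of the call rule was checked on simulated data, but the error rate of the rule on these data was not tested. The comparison of protein sequences and of transcript starts was not run, and no sequence is given.

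The members and gene lists were chosen with earlier results of these data known. Genes were named when they were the 6 highest or lowest in level, the 2 highest or lowest in a comparison, called, part of a paralogous pair, or on a list of members known from disease or extraribosomal roles. *eef2b*, *tpt1*, *fbl*, *rpl22l1*, *rps27l*, *tnnt3b* and *elavl3* were chosen after their values were seen. Alternatives covered pseudocounts, filters, scaling, the bounds and the summary over members. The values of some single genes are not reported here.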

Additional observations from a re-analysis of the deposited data

Results flagged for a closer look

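The median log2 ratio of the ribosomal protein genes from 18 to 21 hpf had opposite signs between genotypes. It was 0.29 in wildtype and 0.23 in Tbx5b-deficient embryos, and −0.40 in Tbx5a-deficient and −0.46 in double-deficient embryos. The median in double-deficient against wildtype embryos was 0.15 at 18 hpf and −0.60 at 21 hpf. Each group has 1 pooled value, so none of these differences between groups was tested.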

How the results depend on the processing

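Of 326 alternative values, 305 stayed within 0.1 on the log2 scale, within 10% of a share or within 1.5 times a count. With upper quartile scaling the median log2 ratio at 21 hpf was −0.66 in Tbx5a-deficient and −0.47 in double-deficient embryos. Without the bounds 6 members were counted in Tbx5a-deficient embryos at 21 hpf, where 1.27% of all kept genes were lower by that rule. With the bounds alone 2 members were counted in preliminary Tbx5a-deficient embryos at 18 hpf, against 2.53% of all kept genes. The bounds alone also counted 2 in preliminary Tbx5b-deficient embryos at 21 hpf, against 4.09% of all kept genes. The main rule counted 0 in each. The difference in log2 level between large and small subunit genes depended on the summary and on the members counted. With the mean over members it was 0.052, 0.075, 0.065 and 0.069 at 18 hpf and 0.078, 0.057, 0.067 and 0.066 at 21 hpf in the triplicate groups, in the order wildtype, Tbx5a-, Tbx5b- and double-deficient. In the preliminary libraries it was −0.15, −0.16 and −0.16 at 18 hpf and 0.094, 0.080 and 0.094 at 21 hpf. With 1 member per protein it was −0.23 in Tbx5a-deficient and −0.19 in Tbx5b-deficient preliminary embryos at 18 hpf. Members below 1 FPKM in all groups of an experiment were left out of these alternatives. At preliminary 18 hpf that removed *rps8b*, at 0.553 to 0.898 FPKM, which the main value counts. The triplicate means include *rps8b*. With only members at 100 FPKM or more, the median difference was −0.15 in wildtype and −0.07 in Tbx5a-deficient triplicate embryos at 18 hpf. The part of *rps8b* in these differences was not tested. Leaving out the members at overlapping loci, chosen after seeing the data, moved no median by more than 0.1. No paired analysis was possible because each group has 1 pooled value or 1 library, and for the same reason no replicate could be left out. The wide bounds limit what can be called in the triplicate experiment.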
